A study of Mesocricetus auratus with 21 samples.

Results

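The change in gene expression of the wild-type golden hamster testis from birth (day 0 postpartum) to day 9 was followed in whole-testis RNA-seq. The members were chosen by genotype and age: all wild-type libraries of these 2 ages, 2 on day 0 and 3 on day 9, 5 of the 21 libraries in the series, each from a different animal. The series compared wild-type and Mov10l1-/- testes at several ages to learn what loss of the piRNA pathway does to male hamsters. Every wild-type library used here is labelled as Mov10l1 wild type, and the labels do not say where its animal was bred. Heterozygotes of the Mov10l1 line were crossed to outbred wild-type hamsters. The knockout enters 1 comparison here, with 2 libraries on day 0 and 2 on day 9. Its allele lacks exon 20 of Mov10l1, was made with CRISPR-Cas9, and descends from a single founder female. The animals of the 5 wild-type libraries carry 5 codes, of which replicates 1 and 2 on day 9 share the first part. Replicate 3 of day 9 shares its first part with the single knockout animal of that age. The 2 knockout libraries of day 0 share a first part that no wild-type library carries. Genotype on day 0 and that part of the code therefore cannot be told apart. No first part was shared between the ages, so age and whatever that part of the code stands for cannot be told apart.

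The testis of a new-born rodent holds seminiferous cords made of Sertoli cells that enclose gonocytes, the arrested foetal germ cells. In the golden hamster these cells resume division and settle at the cord's edge at about the later of the 2 ages, and become spermatogonia, the cells that start spermatogenesis. Around birth the gonocytes also use piRNAs, small RNAs bound by PIWI proteins, to silence retrotransposons, partly by directing new DNA methylation. Sertoli cells meanwhile divide, secrete inhibins and activins and lay down the cord's basement membrane together with peritubular myoid cells. In whole testis, fewer cells of a type and less RNA per cell cannot be told apart, and all levels below are shares of the RNA in each library.

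The deposited values were estimated read counts per gene, 20210612 to 48518947 per library on day 0 and 56754151 to 77527451 on day 9. Levels are given as CPM, the counts of a gene relative to the size of its library after TMM normalisation, a scaling that makes the bulk of genes equal between libraries. The 10 most abundant genes took 7.78 to 8.04% of the counts on day 0 and 26.6 to 27.9% on day 9. Which rRNA depletion kit each library received is not given in the sources used here, so kit and age cannot be told apart in this share. Scaled to library totals, the median gene shifted by -0.51 on the log2 scale, 1915 genes were higher and 7746 lower, and small positive values can turn negative under that scaling. Spearman correlations of gene counts were 0.993 to 0.996 within an age and 0.930 to 0.935 between ages. In the 5 libraries the germ-cell helicase gene Ddx4 ranged from 22.7 to 119 CPM. The Sertoli cell gene Inha ranged from 108 to 510 CPM. Neither gene is limited to the testis, so these values do not test the label of testis. Replicate 3 on day 9 stood apart from replicates 1 and 2 in a set of germ-cell genes. Ret, which encodes a receptor of spermatogonial stem cells, had 19.9, 25.02 and 2.91 CPM in replicates 1, 2 and 3 on day 9 against 3.00 and 2.43 on day 0. Fgfr3, a fibroblast growth factor receptor gene, had 24.0, 26.6 and 2.20 CPM on day 9 against 6.23 and 5.54 on day 0. Both genes were thus near or below their birth level in replicate 3, and germ-cell results that change without that library are also given without it.

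A large share of the testis transcriptome changed in these 9 days. Of 16534 genes with enough reads, 8686 (52.5%) were called, which here means that the age term of an edgeR quasi-likelihood fit had a Benjamini-Hochberg adjusted p under 0.01. Of these, 4549 (27.5% of those tested) were higher on day 9 and 4137 (25%) were lower. Past 2-fold, 1955 genes (11.8%) were higher and 2393 (14.5%) were lower, and past 16-fold 110 were higher and 73 lower. The values of the 2 ages did not overlap in 12956 genes (78.4%). The median log2 fold change of all tested genes was 0.01. Symbols could be given to 1038 of the tested genes, since the count table holds identifiers and names were taken from the study's lists of genes that differ between knockout and wild-type testes. Some of these wild-type libraries went into those lists, so the named genes were not a neutral sample: 28.9% of them were higher and 29.1% lower, with a median of -0.04. Among the 935 tested genes of the day 9 knockout list, 32.1% were higher and 26% lower, and among the 235 of the day 0 list 19.6% and 41.7%. Counts over the gene groups that follow are no independent evidence of direction and were read beside these shares.

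**Figure D1:**
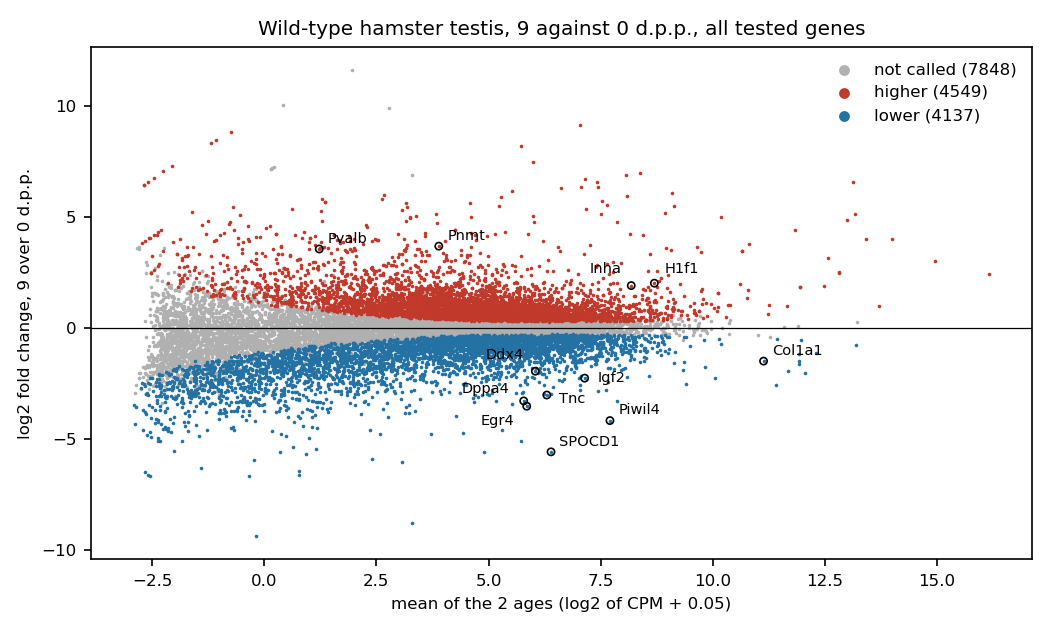
Log2 fold change from day 0 to day 9 (y axis) against the mean CPM of the 2 ages (x axis, log2 scale) for the 16534 tested genes, with genes called higher in red (4549), lower in blue (4137) and those not called in grey. Labelled circles mark genes described in the text; Piwil4 and SPOCD1 lie far below most genes of similar mean, at -4.18 and -5.59.

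Most genes of germ-cell RNA-binding proteins took a smaller share of the testis RNA on day 9 than at birth. Ddx4 (ENSMAUG00000019873), the vasa helicase gene of all germ cells, had 119 and 90.2 CPM in the 2 libraries of day 0 and 28.4, 22.7 and 30.0 CPM in the 3 of day 9. All 3 later libraries lay below both earlier ones, and the log2 fold change was -1.96 with a standard error (SE) of 0.15 (adjusted p = 5.92e-06). Dazl, a translational regulator gene of germ cells, had 70.0 and 63.3 CPM on day 0 and 32.4, 41.3 and 19.8 CPM on day 9. Its log2 fold change was -1.10 (SE 0.24, adjusted p = 0.00290), and the call was lost without either library of day 0 or without replicate 1 of day 9, with adjusted p-values of 0.0113 to 0.0317. Of the 11 genes for germ-cell RNA-binding proteins, 9 were lower, none was higher and 2 were not called, with a median of -1.45. The summed level of the group was 396 to 512 CPM on day 0 and 141 to 196 CPM on day 9. Adad2, which encodes an adenosine deaminase domain protein, changed most among those called, with 41.7 and 35.9 CPM on day 0 and 7.26, 6.20 and 5.92 CPM on day 9. The helicase gene Ddx43 (-2.07), the translational control gene Cpeb1 (-1.81), the Y-box gene Ybx2 (-1.67) and the helicase gene Ddx25 (-1.45) were also lower, as log2 fold changes. The exceptions were Rbm44, a gene for an RNA-binding protein of intercellular bridges, and D1Pas1, a helicase gene. Rbm44 had 13.7 and 9.60 CPM on day 0 and 38.1, 37.2 and 7.67 CPM on day 9, so that replicates 1 and 2 were above and replicate 3 below both birth libraries. Without replicate 3 of day 9 both genes were called higher, Rbm44 at 1.67 and D1Pas1 at 1.31 on the log2 scale.

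The genes of the piRNA pathway followed the same direction, and some of them fell much further. Of 21 tested, 18 were lower, none was higher and 3 were not called, and the median log2 fold change was -1.55 beside 0.01 over all tested genes. Their summed level was 2079 to 2428 CPM on day 0 and 471 to 527 CPM on day 9. The number called lower was 12 without replicate 1 of day 0, and none was called higher with any library left out or under library totals. Among the members named below, Tdrd7 lost its call without replicate 1 of day 0 (adjusted p = 0.0179), and Tdrd5 without either library of that age (adjusted p = 0.0119 and 0.0918).

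Among the PIWI genes themselves the fall was very uneven. Piwil4 (ENSMAUG00000011382), the gene for the nuclear PIWI protein that directs DNA methylation in foetal and neonatal germ cells, had 381 and 410.2 CPM on day 0 and 16.6, 10.0 and 39.1 CPM on day 9. It was among the 10 symbol-bearing genes with the greatest fall, -4.18 on the log2 scale (SE 0.44, adjusted p = 4.36e-05), and -4.89 without replicate 3 of day 9. Piwil2, the gene for the cytoplasmic PIWI protein of the same cells, had 183 and 158 CPM on day 0 and 35.5, 28.7 and 39.9 CPM on day 9. Its log2 fold change was -2.30 (SE 0.13, adjusted p = 1.64e-06), with no overlap between the ages. Piwil1, the gene for the PIWI protein of pachytene spermatocytes, had 14.5 and 10.5 CPM on day 0 and 8.61, 7.28 and 5.03 CPM on day 9. Its log2 fold change of -0.85 (SE 0.22, adjusted p = 0.00822) did not pass without either library of day 0 or without replicate 2 of day 9, with adjusted p-values of 0.0120 to 0.115. Piwil3, the PIWI gene that mice lack and that hamster oocytes use, had 0.289 to 1.16 CPM over the 5 libraries and was not called (-0.93, adjusted p = 0.0952).

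Genes for other proteins of transposon silencing fell as well. The gene described as SPOC domain containing 1 (ENSMAUG00000014337, SPOCD1), whose mouse counterpart links PIWIL4 to DNA methylation, had 168 and 161 CPM on day 0 and 2.17, 1.32 and 7.04 CPM on day 9. This was the greatest fall in the pathway, -5.59 on the log2 scale (SE 0.49, adjusted p = 1.53e-05), and -6.54 without replicate 3 of day 9. Replicate 3 held 3 or more times the SPOCD1 level of the other libraries of its age, yet stayed far below both birth libraries. Tex15, a gene for another protein needed for piRNA-directed methylation, had 699 and 559 CPM on day 0 and 154, 133 and 127 CPM on day 9, a log2 fold change of -2.19 (SE 0.12). Morc1, a gene for an ATPase of transposon silencing, changed by -2.13.

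Genes of the cytoplasmic machinery fell by less than Piwil4. Mael, the gene for a protein of the piRNA processing body, had 131 and 127 CPM on day 0 and 22.6, 22.4 and 19.9 CPM on day 9, with little spread at either age and a log2 fold change of -2.57 (SE 0.088, adjusted p = 1.13e-07). Tdrd1, a Tudor-domain scaffold gene, had 113 and 106 CPM on day 0 and 30.4, 29.8 and 27.6 CPM on day 9, a log2 fold change of -1.91 (SE 0.084). Rnf17 (-2.09), Tdrd9 (-1.55), Tdrd5 (-1.12) and Tdrd7 (-0.63), which encode other Tudor-domain proteins, were also lower. Genes for piRNA trimming and end protection differed in their calls: Pnldc1, the trimming exonuclease gene, was lower, at -1.47 on the log2 scale, and Henmt1, the 2'-O-methyltransferase gene, was not called at -0.66 (adjusted p = 0.0367). Mov10l1 (ENSMAUG00000003667), the gene for the RNA helicase that starts piRNA processing and the target of the knockout, had 103 and 59.9 CPM on day 0 and 40.3, 43.7 and 22.3 CPM on day 9. Its log2 fold change was -1.20 (SE 0.28, adjusted p = 0.00446), and the call was lost without replicate 1 of day 0 (adjusted p = 0.0813) or replicate 1 of day 9 (adjusted p = 0.0114). Btbd18, a gene for a transcriptional activator of pachytene piRNA loci, was not called (-0.017, adjusted p = 0.964), with 10.3 and 4.98 CPM on day 0 and 9.12, 8.63 and 5.28 CPM on day 9.

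**Figure D2:**
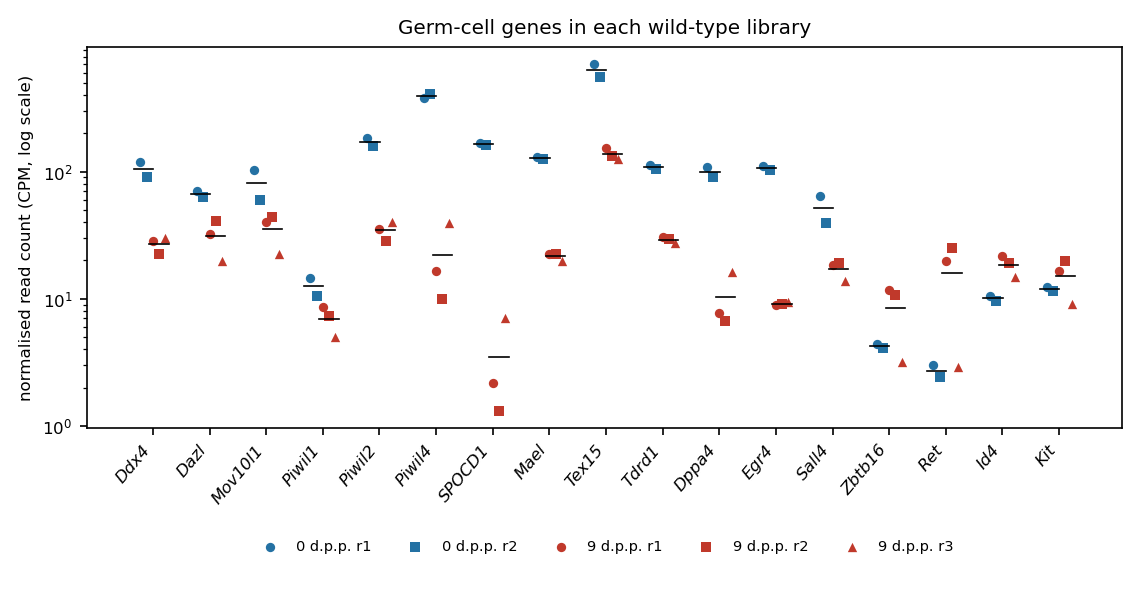
CPM (y axis, log scale) of 17 germ-cell genes in each wild-type library, with day 0 in blue, day 9 in red, a marker shape per replicate and a black bar at the mean of each age. Piwil4 fell from 381 and 410.2 to 16.6, 10.0 and 39.1 CPM, whereas Zbtb16, Ret, Id4 and Kit sat above the birth level in replicates 1 and 2 of day 9 and lower in replicate 3, shown as triangles.

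Genes of foetal germ cells and pluripotency moved in both directions. Of 8 tested, 4 were lower, 2 were higher and 2 were not called, with a median of -0.16. Dppa4, a chromatin gene of pluripotent and foetal germ cells, had 108 and 91.1 CPM on day 0 and 7.76, 6.72 and 16.3 CPM on day 9, a log2 fold change of -3.29 (SE 0.31, adjusted p = 2.16e-05). Sall4, a transcription factor gene of germline and embryonic stem cells, had 63.8 and 39.1 CPM on day 0 and 18.5, 19.2 and 13.7 CPM on day 9, a log2 fold change of -1.59 (SE 0.20). The RNA-binding protein genes Trim71 (-1.07) and Elavl2 (-0.63) were the other members called lower. Both members called higher, Mycn (0.50) and the DNA demethylation gene Tet1 (0.32), were at -0.019 and -0.20 under library totals and are not particular to germ cells. Tet1 lost its call with any 1 library left out (adjusted p = 0.0186 to 0.0431), and Elavl2 without replicate 1 of either age (adjusted p = 0.0581 for day 0 and 0.0134 for day 9). Lin28a, an inhibitor of let-7 processing, was low at both ages, 0.567 and 0.359 CPM on day 0 and 1.25, 1.57 and 0.748 CPM on day 9. It was not called with all 5 libraries (adjusted p = 0.0188) and was called higher without replicate 3 of day 9 (log2 fold change 1.52, adjusted p = 0.00266). Tfap2c, a germ-cell specification gene, had 1.80 and 1.27 CPM on day 0 and 2.35, 2.67 and 0.977 CPM on day 9 and was not called; its small positive change turned negative under library totals (-0.15).

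Spermatogonial genes split more sharply. Of 11 tested, 6 were lower, 1 was higher and 4 were not called, with a median of -0.82, and without replicate 3 of day 9 the number called higher was 4. Egr4 (ENSMAUG00000002784), a growth-response transcription factor gene needed for male fertility, had 110.1 and 102 CPM on day 0 and 8.89, 9.16 and 9.47 CPM on day 9. The tight replicates gave a log2 fold change of -3.53 with an SE of 0.087 (adjusted p = 2.23e-08). Taf4b, a gene for a TFIID subunit of the germline, had 61.0 and 57.3 CPM on day 0 and 16.8, 13.7 and 14.6 CPM on day 9, a log2 fold change of -1.98 (SE 0.10). Sohlh1, a transcription factor gene of differentiating spermatogonia, had 29.6 and 26.2 CPM on day 0 and 11.9, 11.3 and 7.63 CPM on day 9, a log2 fold change of -1.44 (SE 0.17). Uchl1 (-1.35), a ubiquitin hydrolase gene used as a marker of gonocytes and spermatogonia, and the stem-cell maintenance genes Bcl6b (-1.30) and Etv5 (-0.64) were lower as well. Bcl6b lost its call without replicate 1 of day 0 (adjusted p = 0.0153) and Etv5 without either library of that age (adjusted p = 0.0274 and 0.0353).

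The other members were higher on day 9, differed between its libraries or, for Gfra1, were lower without being called. Id4, a marker of spermatogonial stem cells, had 10.6 and 9.64 CPM on day 0 and 21.7, 19.1 and 14.8 CPM on day 9. All 3 later libraries were above both earlier ones, with a log2 fold change of 0.87 (SE 0.16, adjusted p = 0.00133), which did not pass without either library of day 0 (adjusted p = 0.0117 and 0.0163) or under library totals (0.36). Zbtb16, which encodes the stem-cell factor PLZF, had 4.37 and 4.10 CPM on day 0 and 11.6, 10.7 and 3.20 CPM on day 9. The ages overlapped through replicate 3, and the gene was not called (1.01, adjusted p = 0.0760), whereas without that library it was called higher at 1.39 (adjusted p = 3.58e-05). Ret behaved likewise, with 2.53 (adjusted p = 0.01373) in all libraries and 3.02 (adjusted p = 5.71e-07) without replicate 3. Gfra1, the gene for the co-receptor of RET for GDNF, was not called and had 8.69 and 7.17 CPM on day 0 and 5.94, 5.56 and 1.95 CPM on day 9 (log2 fold change -0.82, adjusted p = 0.0797). Its 3 later libraries all lay below both earlier ones. Kit, the receptor gene of differentiating spermatogonia, had 12.5 and 11.6 CPM on day 0 and 16.5, 19.8 and 9.08 CPM on day 9 and was not called (0.33, adjusted p = 0.304); it was called higher without replicate 3 (0.59) and was at -0.18 under library totals.

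Most meiotic genes were not called with all 5 libraries. Of 19 tested, 12 were not called, 6 were lower and 1 was higher, with a median of -0.13. Stag3, a meiotic cohesin gene, had 71.9 and 52.5 CPM on day 0 and 18.3, 15.4 and 10.6 CPM on day 9, a log2 fold change of -2.07 (SE 0.21). Brdt, a testis bromodomain gene, had 14.0 and 12.5 CPM on day 0 and 1.69, 1.66 and 1.93 CPM on day 9, a log2 fold change of -2.92 (SE 0.15). The synaptonemal complex gene Sycp1 had 19.1 and 11.6 CPM on day 0 and 18.5, 21.8 and 8.89 CPM on day 9, with overlapping ages and a log2 fold change of 0.082 (adjusted p = 0.842), which was -0.43 under library totals. The member called higher, Sun1, encodes a nuclear envelope protein that somatic cells also use. The number called lower was 2 without replicate 1 of day 0, and 3 members were called higher without replicate 3 of day 9. Of 9 genes used later in the male germline, 4 were lower, among them the transcription factor gene Sox30 (-1.96), and 5 were not called, of which 2 were called higher without replicate 3.

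To set the germ-cell genes against each other, their ratios to Ddx4 were compared inside each library, where no scaling between libraries enters. Ddx4 was chosen as the reference after its values were seen, and some of the genes, such as Mycn, Tet1, Sun1 and Id4, are also used by somatic cells. Of 76 other genes of the germ-cell groups, 43 had a higher ratio to Ddx4 on day 9 with no overlap between the ages, 10 a lower ratio with no overlap, and 23 overlapped. Over all tested genes 86.4% had a higher and 2.44% a lower ratio without overlap, with a median shift of 1.95 on the log2 scale. Among the 20 piRNA pathway genes other than Ddx4, 5 were lower, 8 were higher and 7 overlapped. The 5 were SPOCD1, Piwil4, Mael, Piwil2 and Tex15. The ratio of SPOCD1 to Ddx4 shifted by -3.96 and that of Piwil4 by -2.45 on the log2 scale, so both fell well beyond Ddx4. The shifts of Mael (-0.63), Piwil2 (-0.36) and Tex15 (-0.24) were smaller, and the ratio of Tdrd1 (0.043) overlapped between the ages. Outside the pathway, the genes that also fell relative to Ddx4 included Egr4 (-1.58), Dppa4 (-1.44), Brdt (-0.96) and Adad2 (-0.64). Piwil1 (1.09), Id4 (2.81), Zbtb16 (2.74) and Ret (4.01) rose relative to Ddx4 in all 3 libraries of day 9, replicate 3 included. Within the PIWI family the log2 ratio of Piwil4 to Piwil2 counts moved by -2.10 and that of Piwil1 to Piwil2 by 1.45, both without overlap. Ratios to Piwil2 were not taken over all genes, and Piwil2 itself changed by -2.30 beside a median of 0.01. Piwil1 was lower too (-0.85), so its higher ratio is no rise of its own level.

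**Figure D3:**
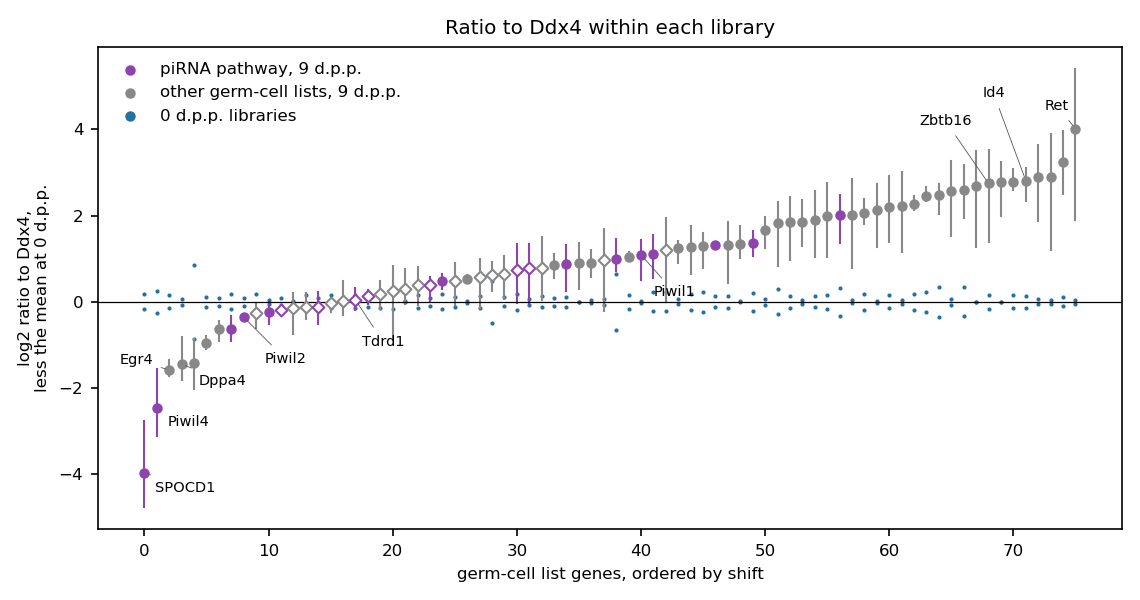
Log2 ratio of the counts of each gene to those of Ddx4 within a library, less the mean on day 0 (y axis), for 76 germ-cell genes ordered by shift (x axis). Large symbols give the mean and lines the range of the 3 libraries of day 9, filled where the ages do not overlap and open diamonds where they do, and small blue points are the 2 libraries of day 0; SPOCD1 and Piwil4 lie lowest, at -3.96 and -2.45.

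Sertoli cell genes rose over the same days. Of 5 markers tested, 4 were higher and 1 was not called, with a median of 0.97. Their summed level was 2163 to 2513 CPM on day 0 and 3892 to 4026 CPM on day 9. Clu, described below, gave the main share of this sum at both ages. Inha (ENSMAUG00000002730), the gene for the alpha subunit shared by all inhibins, had 108 and 137 CPM on day 0 and 390.5, 473 and 510.3 CPM on day 9, a log2 fold change of 1.91 (SE 0.15, adjusted p = 7.4e-06). Sox8, a transcription factor gene of Sertoli cells, had 16.6 and 19.4 CPM on day 0 and 43.2, 52.8 and 48.8 CPM on day 9, a log2 fold change of 1.43 (SE 0.12). Clu, the gene for the secreted chaperone clusterin, had 1722 and 2035 CPM on day 0 and 2939, 2877 and 2902 CPM on day 9; its smaller rise of 0.63 (adjusted p = 0.00137) was 0.11 under library totals and did not pass there or without replicate 1 of day 0 (adjusted p = 0.0141). Kitl, the KIT ligand gene, had 123 and 106 CPM on day 0 and 121, 155 and 145 CPM on day 9. It was not called (0.29, adjusted p = 0.0516) and was at -0.22 under library totals.

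The subunits of activin and inhibin moved in opposite directions. Inhbb, the gene for the beta B subunit of inhibin B and activin B, had 193 and 215 CPM on day 0 and 398, 381 and 420.4 CPM on day 9, a log2 fold change of 0.97 (SE 0.092, adjusted p = 2.28e-05). Inhba, the gene for the beta A subunit of activin A, had 141 and 158 CPM on day 0 and 103, 79.2 and 69.0 CPM on day 9, a log2 fold change of -0.83 (SE 0.15, adjusted p = 0.00101), which did not pass without replicate 2 of day 0 (adjusted p = 0.0147). The log2 ratio of Inhba to Inhbb counts inside a library moved by -1.82 and that of Inha to Inhbb by 0.93, both without overlap between the ages. Ratios to Inhbb were not taken over all genes, and Inhbb itself changed by 0.97 beside a median of 0.01. Over all 13 genes of the activin, inhibin and TGF-beta group, 3 were higher, 4 were lower and 6 were not called, and under library totals 7 were lower. Over all tested genes 27.5% were higher and 25% lower. Tgfb1, the gene for the ligand TGF-beta 1, had 62.0 and 48.2 CPM on day 0 and 6.90, 9.88 and 3.97 CPM on day 9, a log2 fold change of -2.99 (SE 0.28, adjusted p = 2.27e-05). The genes for its latent binding proteins Ltbp1 (-1.49) and Ltbp4 (-0.90) were lower too, and Fstl3, the gene for a secreted activin antagonist, was higher (1.10).

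Retinoid genes moved in both directions. Retinoic acid, made from retinol by a dehydrogenase step and an aldehyde oxidation step, drives the differentiation of spermatogonia. Of 5 genes tested, 2 were higher, 2 were lower and 1 was not called, and the counts were the same with each library left out and under library totals. Rdh10, the gene for the retinol dehydrogenase of the first step, had 12.2 and 13.9 CPM on day 0 and 54.7, 46.1 and 44.2 CPM on day 9, a log2 fold change of 1.90 (SE 0.12). For the second step, Aldh1a3 had 124 and 125 CPM on day 0 and 290.4, 286 and 313 CPM on day 9, a log2 fold change of 1.25 (SE 0.084, adjusted p = 3.45e-06). Aldh1a2, its paralogue, had 30.3 and 30.4 CPM on day 0 and 15.4, 12.2 and 12.8 CPM on day 9, a log2 fold change of -1.17 (SE 0.11, adjusted p = 2.69e-05). The 2 paralogues thus moved apart by -2.43 in their log2 ratio. Ratios to Aldh1a3 were not taken over all genes. Rarg, a retinoic acid receptor gene, was lower, at -1.002 on the log2 scale.

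Igf2 and Mest fell among the imprinted genes. Igf2, the imprinted foetal growth factor gene, had 242 and 226 CPM on day 0 and 61.8, 44.9 and 38.9 CPM on day 9, a log2 fold change of -2.27 (SE 0.16, adjusted p = 5.31e-06). Mest, another imprinted gene, had 149.9 and 135 CPM on day 0 and 84.3, 77.6 and 74.2 CPM on day 9 (-0.86, SE 0.088). Of the 6 imprinted genes tested, these 2 were lower and 4 were not called, among them the cell-cycle inhibitor gene Cdkn1c, with 52.4 and 57.4 CPM on day 0 and 49.95, 41.4 and 38.9 CPM on day 9 (-0.34, adjusted p = 0.0284). Under library totals, and without replicate 3 of day 9, 4 were lower. Of 16 genes for receptor tyrosine kinases, their ligands and targets of ERK signalling, 5 were lower, none was higher and 11 were not called. For this group and the imprinted genes, the shares over all tested genes to be read beside these counts were 25% lower and 27.5% higher. The 5 receptor kinase and ERK genes called lower included Fgfr2, a fibroblast growth factor receptor gene, with 22.1 and 22.9 CPM on day 0 and 11.5, 10.6 and 8.29 CPM on day 9 (-1.15, SE 0.14). The immediate-early gene Egr4, above, is in the receptor kinase and ERK group too, while the ERK feedback genes Dusp6 (-0.33) and Spry4 (-0.31) were not called. Without replicate 3 of day 9, 5 members were called higher, namely Ret, Fgfr3, Etv4, Erbb4 and Kit, and without either library of day 0 only 2 were called lower.

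Extracellular matrix genes changed in both directions at the RNA level. Of 29 genes tested, 15 were lower, 6 were higher and 8 were not called, with a median of -0.55, and under library totals 20 were lower and 3 higher. Col1a1, the gene for the main fibrillar collagen chain, had 2981 and 3650.4 CPM on day 0 and 1266, 1194 and 1053 CPM on day 9, a log2 fold change of -1.50 (SE 0.13). Tnc, which encodes the tissue-remodelling protein tenascin C, had 153 and 127 CPM on day 0 and 19.0, 17.2 and 15.2 CPM on day 9. It changed by -3.03 (SE 0.12, adjusted p = 2.19e-07). Col12a1, a gene for a fibril-associated collagen, had 341 and 346 CPM on day 0 and 54.9, 50.5 and 44.2 CPM on day 9, a log2 fold change of -2.78 (SE 0.10, adjusted p = 1.4e-07). Fbln1 (-2.20), Reln (-1.65) and Fras1 (-1.24), for the matrix proteins fibulin 1 and reelin and a basement membrane adhesion protein, were lower too. Those that rose included Col4a3, a gene for a basement membrane collagen chain, with 5.40 and 4.38 CPM on day 0 and 28.8, 33.4 and 17.1 CPM on day 9 (2.41, SE 0.27). The cartilage-type collagen genes Col9a2 (1.76) and Col9a1 (1.001, and 0.48 and not called under library totals) were higher as well.

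**Figure D4:**
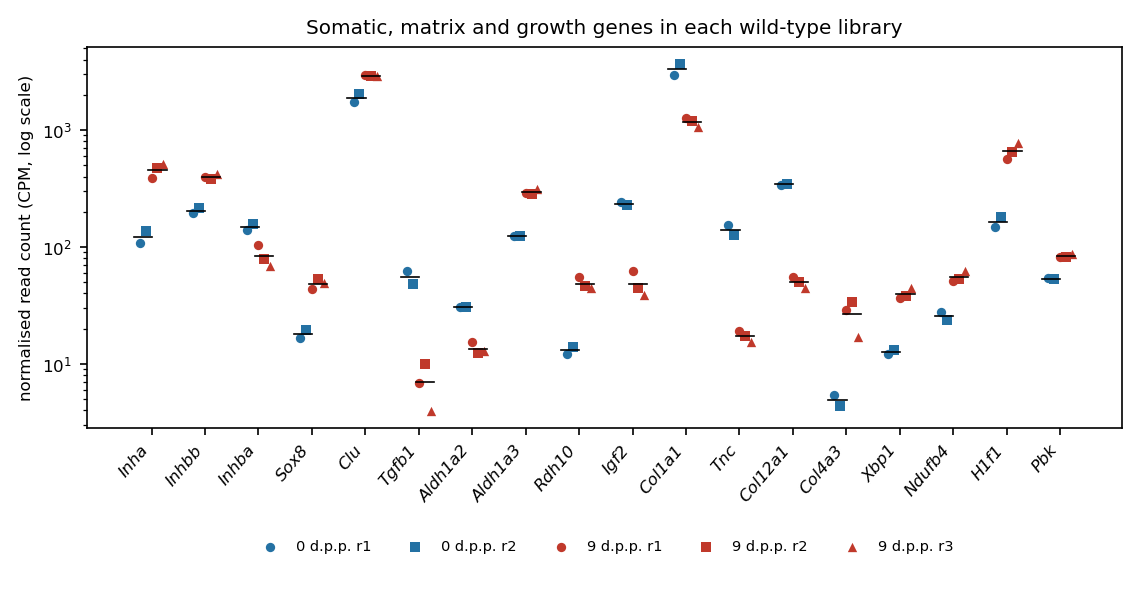
CPM (y axis, log scale) of 18 somatic, matrix and growth genes in each wild-type library, with day 0 in blue, day 9 in red, a marker shape per replicate and a black bar at the mean of each age. Inhbb and Aldh1a3 rose while Inhba and Aldh1a2 fell, and Tnc fell from 153 and 127 to 19.0, 17.2 and 15.2 CPM.

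Histone genes had the highest median log2 fold change of the 26 groups, 1.29. Of 28 tested, 24 were higher, 1 was lower and 3 were not called; under library totals 16 were higher and 1 lower. H1f1, a linker histone gene, had 149 and 181 CPM on day 0 and 567, 646 and 781 CPM on day 9, a log2 fold change of 2.01 (SE 0.15), and H2ax, the gene for the histone variant of DNA damage signalling, changed by 1.58. Histone genes include many near-identical copies, and reads shared between copies were divided by the authors' counting, so the value of any single copy is uncertain. Genes of DNA replication and mitosis had a median of 0.30: 5 of 10 were higher and 1 was lower under TMM, while none was higher and 4 were lower under library totals. The mitotic kinase gene Pbk had 53.6 and 52.6 CPM on day 0 and 81.7, 82.4 and 86.7 CPM on day 9 (0.65, SE 0.079), and 0.14 under library totals. Skp2, a gene for a ubiquitin ligase subunit of the cell cycle, was lower (-0.50), and this call was lost with any library other than replicate 3 of day 9 left out (adjusted p = 0.0132 to 0.0304). The kinase genes Cdk4 (0.04, and called lower at -0.48 under library totals) and Cdk6 (-0.12) were not called, and of 3 genes for inhibitors of cyclin-dependent kinases Cdkn2c was called higher (0.71, and 0.20 under library totals).

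Genes for protein folding in the endoplasmic reticulum and for oxidative phosphorylation rose in part on the TMM scale. Of 13 folding genes, 6 were higher, none was lower and 7 were not called, and under library totals 3 were higher and 1 lower. Creld2, a gene induced by endoplasmic reticulum stress, had 17.6 and 21.4 CPM on day 0 and 63.7, 79.4 and 96.5 CPM on day 9 (2.04, SE 0.18). Xbp1, the gene for a transcription factor of secretory cells, had 12.2 and 13.1 CPM on day 0 and 36.6, 37.6 and 44.5 CPM on day 9 (1.65, SE 0.12). Of 10 oxidative phosphorylation genes, 7 were higher, none was lower and 3 were not called, but under library totals 3 were higher and 3 lower. Ndufb4, a gene for a complex I subunit, had 27.6 and 23.6 CPM on day 0 and 50.7, 53.5 and 61.6 CPM on day 9 (1.10, SE 0.12), and the mitochondrially encoded ND6 was not called (-0.11). Among 17 chromatin regulators, 3 were higher, 4 were lower and 10 were not called, and under library totals 1 was higher and 8 lower. Neither share on the TMM scale was above that over all tested genes, of which 27.5% were higher and 25% lower. Kdm1b, the gene for a histone H3K4 demethylase of the germline, had 169 and 163 CPM on day 0 and 29.3, 21.1 and 44.6 CPM on day 9 (-2.39, SE 0.24). Chd7, a chromatin remodeller gene, had 65.2 and 48.4 CPM on day 0 and 12.1, 12.01 and 10.4 CPM on day 9 (-2.30, SE 0.13), and Smarcd3, for a subunit of the SWI/SNF remodeller, was higher (1.33).

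Steroid and cholesterol synthesis genes were mostly not called. Of 8 tested, 7 were not called and 1, the isomerase gene EBP (ENSMAUG00000015656), was higher by 0.42; under library totals it was at -0.10, and 5 members were lower. It lost its call when any library but replicate 1 of day 9 was left out (adjusted p = 0.0161 to 0.0403). CYP11A1, the gene for the first enzyme of steroid synthesis, had 41.1 and 38.6 CPM on day 0 and 38.4, 40.6 and 24.5 CPM on day 9 and was not called (-0.21, adjusted p = 0.349). Of 5 smooth muscle and peritubular myoid genes 3 were higher, but none under library totals and 1 without replicate 1 of either age or replicate 2 of day 9. Their summed level was 639.8 to 769.6 CPM on day 0 and 836 to 1109 CPM on day 9.

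Markers of other cells that a whole testis may carry gave no common direction. Of 4 endothelial genes 2 were lower, the VEGF receptor gene Flt1 (-1.36) and the gene for the peptide apelin Apln (-0.90), and all 4 under library totals. Apln lost its call with any library but replicate 3 of day 9 left out (adjusted p = 0.0133 to 0.0635). The summed level of the 4 was 90.3 to 92.1 CPM on day 0 and 41.4 to 58.4 CPM on day 9. Of 11 leukocyte genes 2 were higher and 2 were lower, with a summed level of 91.7 to 94.1 CPM on day 0 and 122 to 134 CPM on day 9, to which Mertk, a phagocytic receptor gene that Sertoli cells also use, gave the main share. Without replicate 3 of day 9, 4 leukocyte genes were higher and 3 lower, without either library of day 0, 1 was higher and 2 lower, and under library totals 1 was higher and 5 were lower. The macrophage receptor gene Csf1r had 16.8 and 16.7 CPM on day 0 and 18.8, 13.7 and 15.4 CPM on day 9 and was not called. Hbb-y, an embryonic haemoglobin gene, was lower, with 15.3 and 13.2 CPM on day 0 and 4.96, 7.08 and 9.37 CPM on day 9, but not without either library of day 0 (adjusted p = 0.0433 and 0.0155). The other erythroid marker, the spectrin gene Sptb, had 52.6 and 58.3 CPM on day 0 and 79.5, 70.3 and 64.1 CPM on day 9. It was not called (0.37, adjusted p = 0.0141), was called higher without replicate 3 of day 9 (0.44), and was at -0.15 under library totals. Both erythroid genes summed to 67.95 to 71.5 CPM on day 0 and 73.5 to 84.5 CPM on day 9. Summed levels of skeletal muscle genes were 28.9 to 35.2 CPM on day 0 and 70.5 to 79.2 CPM on day 9, with 2 of 5 higher, 1 lower and 2 not called. The lower one, the chloride channel gene Clcn1, had 1.12 and 1.87 CPM on day 0 and 0.208, 0.199 and 0.519 CPM on day 9 (-2.27, adjusted p = 0.00215). Its call was lost without replicate 2 of day 0 (adjusted p = 0.0235) or replicate 1 of day 9 (adjusted p = 0.0116). The myogenic factor gene Myog had 0.199 to 2.27 CPM over the 5 libraries. Summed levels of neuronal genes were 40.4 to 43.8 CPM on day 0 and 32.1 to 34.6 CPM on day 9. Of the 6 tested, 1 was higher and 1 lower, and without replicate 3 of day 9 or under library totals 3 were lower. Mesothelial and epithelial genes summed to 31.8 to 35.02 CPM on day 0 and 30.9 to 58.05 CPM on day 9, with a median log2 fold change of 0.87. Of the 7 tested, 1 was higher and none was lower. Without replicate 3 of day 9, 4 were higher, and under library totals none was higher and 1 was lower. The part of these cells in the changes above was not tested.

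**Figure D5:**
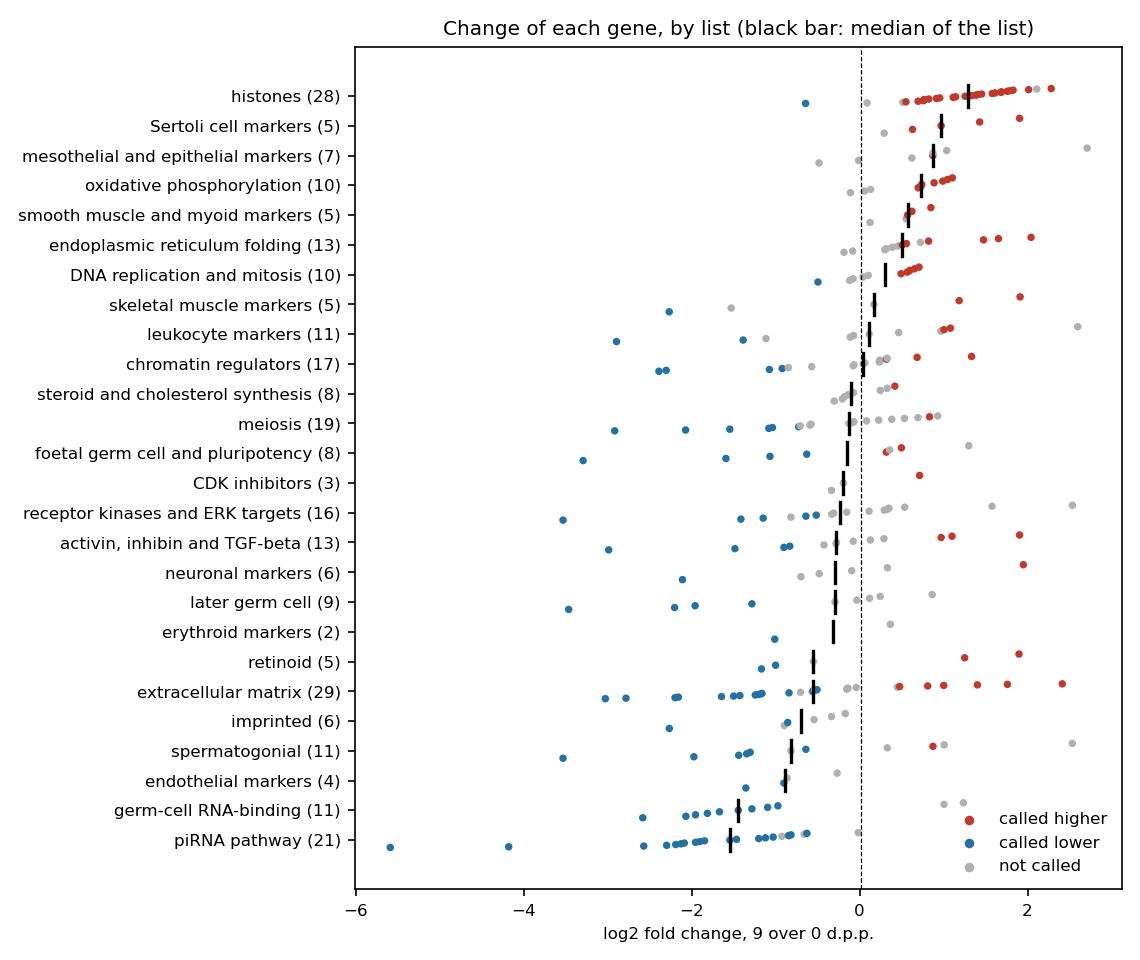
Log2 fold change from day 0 to day 9 (x axis) of each tested gene in 26 groups (y axis, number tested in brackets), coloured by call, with a black bar at the median of the group and a dashed line at the median of all tested genes, 0.01. Groups run from the piRNA pathway, with the lowest median of -1.55, to histones with the highest, 1.29, on the TMM scale; under library totals the oxidative phosphorylation and DNA replication groups go from 7 to 3 and from 5 to 0 higher calls.

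None of the symbol-bearing genes with the greatest rises described here is in the germ-cell groups above. Ret, of the spermatogonial group, changed by 2.53, more than Acsbg1 below, but was not called with all 5 libraries. Without replicate 3 of day 9 Ret was called higher. Pnmt, the gene for the enzyme that makes adrenaline, had 1.57 and 2.99 CPM on day 0 and 29.7, 25.8 and 26.4 CPM on day 9, a log2 fold change of 3.68 (SE 0.23, adjusted p = 2.47e-06). Pvalb, which encodes the calcium-binding protein parvalbumin, had 0.283 and 0.478 CPM on day 0 and 3.41, 3.47 and 5.69 CPM on day 9 (3.55, SE 0.38). Acsbg1, an acyl-CoA synthetase gene, was the most abundant of those described, with 57.0 and 75.6 CPM on day 0 and 321, 389.7 and 412 CPM on day 9 (2.50, SE 0.16). The ferritin receptor gene Scara5 (2.80), the peroxisomal transporter gene Abcd2 (3.05), Cytip (3.03), Itgbl1 (3.49), Serpinb10 (2.96) and Mpv17l2 (2.63) were also higher.

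Several of the greatest falls ended near the limit of detection. Rnase1, the pancreatic ribonuclease gene, had 70 and 54 counts on day 0 and 0 counts in all 3 libraries of day 9, at least 30.9-fold lower against a floor of 3 counts per library. Nxf7, a gene for a member of the nuclear RNA export factor family, fell from 74.8 and 77.2 CPM on day 0 to 2.32, 2.02 and 5.34 CPM on day 9, a log2 fold change of -4.58 (SE 0.32, adjusted p = 4.12e-06). Lypd6b had 30.8 and 19.5 CPM on day 0 and 0.995, 0.849 and 0.893 CPM on day 9 (-4.78, SE 0.21). Apob, the gene for the main apolipoprotein of low-density lipoprotein, had 17.5 and 15.3 CPM on day 0 and 1.23, 0.686 and 2.31 CPM on day 9 (-3.57, SE 0.35). Serpina6, which encodes the carrier of corticosteroids in blood, had 501 and 303 counts on day 0 and 3, 7 and 18 counts on day 9. Nxf7, Apob and Serpina6 shared with Piwil4 and SPOCD1 a highest value of their age in replicate 3 of day 9. Fam217a (-3.88), Scn11a, Ptchd3, Piwil4 and Egr4 completed the 10.

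Among genes without a symbol, ENSMAUG00000006046 had 0.450 and 0.478 CPM on day 0 and 224, 259 and 308 CPM on day 9, a log2 fold change of 9.16 (SE 0.23, adjusted p = 2.23e-08). ENSMAUG00000006950 had no count on day 0 and 57 to 67 counts on day 9, at least 13.0-fold higher against the floor of 3 counts per library. In the other direction, ENSMAUG00000014940 had 20.3 and 18.4 CPM on day 0 and 2 to 3 counts per library on day 9. ENSMAUG00000003336 had 74 and 43 counts on day 0 and 0 to 2 counts on day 9.

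The same 9 days in Mov10l1-/- testes were then compared with those of the wild type, to ask where the change itself differed between genotypes. The label of the knockout was checked on its target: on the scale of the joint fit Mov10l1 had 13.2 and 12.2 CPM in the 2 knockout libraries of day 0 and 1.79 CPM on day 9, below every wild-type library of its age. The 2 knockout libraries of the later age came from 1 animal by their labels and were summed, so the knockout at that age rests on a single animal, and its spread was taken from the other groups. Of 17342 genes tested for an interaction of genotype and age, 4 (0.0231%) passed an adjusted p of 0.01 with edgeR, and 2907 were below an unadjusted p of 0.05. The change was more positive in the wild type for 3 of them (0.0173%) and more negative for 1 (0.00577%). Of the 4, Ddx25 has a symbol and a role, as a helicase gene of the male germline. It had 105 and 75.6 CPM on day 0 and 4.94 CPM on day 9 in the knockout. In the wild type it had 62.8 and 46.3 CPM on day 0 and 21.0, 18.03 and 21.3 CPM on day 9. The log2 change was -4.19 in the knockout and -1.43 in the wild type, a difference of 2.76 (SE 0.29, adjusted p = 0.00979), and this call was lost in 8 of 16 alternatives. Piwil4 changed by -5.84 in the knockout and -4.16 in the wild type, and the difference of 1.68 was not called (adjusted p = 0.271). For Ddx4 the difference was 1.86 (adjusted p = 0.0194) and for Inha -1.20 (adjusted p = 0.0294), neither past the threshold. The number of called interactions was 0 without replicate 1 or replicate 2 of the wild type on day 0, 0 without replicate 1 of either genotype on day 9, and 255 without replicate 3 of the wild type on day 9, and it was 448 with DESeq2.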

How the data were processed

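RNA-seq of whole testis was compared between 5 wild-type libraries, 2 of day 0 and 3 of day 9, with 4 Mov10l1-/- libraries in the interaction alone. The authors sequenced 75-nt single-end directional libraries after rRNA depletion, aligned them with STAR 2.7.3a and deposited estimated counts per gene from featureCounts 2.0.0, in which reads with several alignments or features were divided. Which of the depletion kits each library received is not given in the sources used here. The counts were rounded and tested with edgeR 4.0.16 (R 4.3.3; TMM, filterByExpr, quasi-likelihood, Benjamini-Hochberg), called at an adjusted p of 0.01, with DESeq2 1.42.0 as an alternative. Standard errors were taken from the fold change and its F statistic. The wild-type fit was first run on simulated data. An interaction was simulated too, but with the 2 knockout libraries of day 9 kept apart. The reported interaction summed them, so that simulation does not test its setting. Depth ran from 20210612 to 77527451 counts per library. P-values measure the spread between these animals.

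The count table holds 22285 genes, of which 5751 had too few reads to be tested. Symbols came from the study's gene lists and cover 1044 genes. Beyond the 5 wild-type and 4 knockout libraries, no columns of other samples were used (0). The authors' comparison columns in those lists, which hold fold changes and p-values, were not used. The members and gene lists were chosen with earlier results of these data known.

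Genes were named by a rule: 20 preset genes, the 10 symbol-bearing genes with the largest called change in each direction, the top 3 per list and direction, the top 5 interactions per direction and 2 unnamed genes per direction. Chosen genes had to reach an average of 1 CPM in either age group without overlap, apart from the preset ones. Other list members named in the text were chosen after their values were seen. A gene that the rule names is not reported here. Same-age wild-type libraries differed by more than sampling noise, with a chi-square of 20.7 to 52.3 per degree of freedom. This cannot show that they came from separate animals, since libraries of 1 animal may also differ. Each wild-type library was counted as a sample by its animal code. Alternatives changed the scaling, the filter on low counts, the tool, the libraries and the replicate term.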

Additional observations from a re-analysis of the deposited data

Results flagged for a closer look

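The change from day 0 to day 9 differed between genotypes in 4 genes by the interaction term of the edgeR fit. For Ddx25 the change in the wild type less that in the knockout was 2.76 on the log2 scale, with an adjusted p of 0.00979. Its call was lost in 8 of 16 alternatives, over which the difference ranged from 2.50 to 3.00 and the adjusted p reached 0.0381. For the unnamed gene ENSMAUG00000014940 the difference was -5.08, with an adjusted p of 0.00399, and it rests on 2 to 3 counts per wild-type library of day 9. Its call was lost in 4 of 15 alternatives, with an adjusted p of up to 0.0381. The knockout at day 9 is 1 animal, whose code shares its first part with replicate 3 of the wild type at that age. The 2 knockout libraries of day 0 share a first part that no wild-type library carries. No formal test for a single deviating library was made in groups of 2 or 3 libraries.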

How the results depend on the processing

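The counts of genes higher and lower at day 9 were within 1.5 times the reported 4549 and 4137 with RLE size factors, without a filter, with at least 10 counts in every library, with DESeq2, with the libraries that share the first part of an animal code summed, and in a joint fit with the knockout. Library totals gave 1915 higher and 7746 lower, so that 19.8% of calls were higher in place of 52.4%. An alternative chosen after seeing the data, library totals without the 10 most abundant genes, gave 3440 and 5073, or 40.4% higher. Leaving out 1 library gave 3347 to 4489 higher and 2714 to 4153 lower, the lowest of both without replicate 1 of day 0, where the remaining library of that age is assumed to vary like the other age. Under library totals the log2 fold change turned negative for Mycn (-0.019), ENSMAUG00000015656 (-0.097), Tfap2c (-0.15), Kit (-0.18), Tet1 (-0.20) and Kitl (-0.22), and the cause was not tested.

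With the replicate number as a block (replicate block) 4748 genes were higher and 4265 lower. The numbers did not pair the samples, since deviations of same-numbered libraries had a correlation of -0.0052.

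The number of genes with an interaction of genotype and age, 4, was 1 with RLE size factors, 8 with library totals, 174 without a filter, 448 with DESeq2, 246 with the knockout libraries of day 9 kept apart and 645 with a replicate block as well. With at least 10 counts in every library edgeR called 0, with 2721 genes at an unadjusted p under 0.05. Leaving out 1 library gave 0 to 255, the highest without replicate 3 of the wild type at day 9. The cause of these differences was not tested. With 1 knockout animal at day 9, its spread at that age is not measured.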
